A study of Mus musculus with 8 samples.

Results

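Expression of 34 genes of cholesterol synthesis, uptake and efflux was examined in hearts of db/db and db/m mice. The genes were listed by function, from the mevalonate pathway to the cholesterol exporters, with earlier results of these data known. They make up 34 of the 55573 genes in the deposited count table. RNA sequencing was done on hearts of male C57BLKS/J mice at 24 weeks of age, with 4 db/db and 4 db/m libraries. The db/db mouse is homozygous for a mutation of the leptin receptor gene and becomes obese and diabetic, and the db/m mouse, which carries 1 mutant copy in the same strain, is its lean control. The labels name no treatment, no chamber of the heart and no separate animal for each library. Values are counts per gene, given here as CPM (counts scaled to a common library size) after scaling by the trimmed mean of M values (TMM).

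Cells make cholesterol from acetyl-CoA through mevalonate, isoprenoid diphosphates, squalene and lanosterol, and isoprenoids also feed the prenylation of proteins. When membrane sterol is low, SCAP carries the transcription factor SREBP2 out of the endoplasmic reticulum and genes of synthesis and uptake are switched on, while the INSIG proteins hold SCAP back when sterol is plentiful. When oxysterols build up, the liver X receptors (LXR) switch on the exporters ABCA1 and ABCG1 and the ligase MYLIP, so that synthesis and efflux normally move in opposite directions.

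No gene of the set passed the test between db/db and db/m hearts in the full set of 8 libraries. By edgeR's quasi-likelihood test with Benjamini-Hochberg adjustment over 17411 genes, 0 of 33 tested members had an adjusted p under 0.05, and the smallest was 0.296. The background was as sparse: 1 of 17411 genes was called, 0.00574%. Because members were chosen with earlier results of these data known, their shares below describe the list and do not test it. At an unadjusted p under 0.05 there were 7 of 33 members (21.2%), all lower in db/db hearts (Acat2, Hmgcs1, Idi1, Sqle, Lrp1, Abca1 and Abcg1), against 7.84% of all genes lower and 5.12% higher. DESeq2 and limma-voom with sample weights also called 0 members, against 2.17% and 0.58% of all genes. DESeq2 had 8 members at an unadjusted p under 0.05, all lower (all genes 14.6%, with 8.52% lower). Limma-voom had 5 at that p, 4 lower and 1 higher, Mylip (all genes 14.3%, with 7.29% lower and 7.01% higher). By edgeR without db/m replicate 1 there were 4 members at that p, all lower (all genes 9.67%). Without db/m replicates 1 and 3 there were 2, Abcg1 lower and Mylip higher (all genes 10.7%). In 5 of 33 members (15.2%) the highest db/db value was below the lowest db/m value, against 4.61% of all genes; 0 members lay wholly above, against 5.04%. Log2 fold changes were negative for 18 of 33 members, against 52.3% of all genes, with a median of -0.17 over the members and -0.02 over all tested genes. Without db/m replicates 1 and 3 the members' median was -0.04, and without db/m replicate 1 alone it was -0.09.

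The totals ranged from 19541757 to 22249911 counts, and a tested member had between 18 and 22992 counts in a library. In bulk tissue, fewer cells of a type and less RNA per cell cannot be told apart. Summed cardiomyocyte markers had 29551 to 35899 CPM in db/db and 27728 to 33778 CPM in db/m hearts, and hepatocyte markers at most 1.78 CPM in any library. Myh6 and Actc1 made up most of the cardiomyocyte sum. The 8 single markers of that list had log2 fold changes from -0.13 to 1.695, with a median of 0.26 and 0 called by edgeR. The libraries of db/m replicates 1 and 3 stood apart. Their 8 adipocyte markers summed to 360 and 909 CPM, against 24.5 to 37.4 CPM in db/db hearts and 27.4 to 29.3 CPM in db/m replicates 2 and 4; 3 to 6 of the 8 had 0 counts in a db/db library, and none in db/m replicates 1 and 3. Their 6 atrial cardiomyocyte markers summed to 1632 and 3887 CPM, against 24.9 to 118 CPM in db/db hearts and 16.0 to 89.8 CPM in the other db/m hearts. These 2 libraries were above the other 6 in 11 of 33 members (33.3%) and in 15% of all genes. The 11 included all 7 members lower at an unadjusted p under 0.05 in edgeR (Acat2, Hmgcs1, Idi1, Sqle, Lrp1, Abca1 and Abcg1). Values without db/m replicates 1 and 3 are given for the members named with full statistics, except Fdps, Mvd, Fdft1 and Srebf2. They are also given for those whose direction turned. The 18 alternative fits include leaving out these 2 libraries. Over them the log2 fold change was 0.32 to 0.59 for Mvd, 0.19 to 0.47 for Fdft1 and -0.41 to -0.13 for Srebf2. The library of db/m replicate 3 also deviated by gene length. Its median log2 difference was -0.48 in the shortest quartile of genes and 0.37 in the longest. The longest quartile held 9 tested members, Abca1, Abcg1, Lrp1, Lss, Msmo1, Npc1, Scap, Soat1 and Srebf2, and the shortest held Pmvk. With the length trend removed from every library, the members' median log2 fold change was -0.13.

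**Figure D1:**
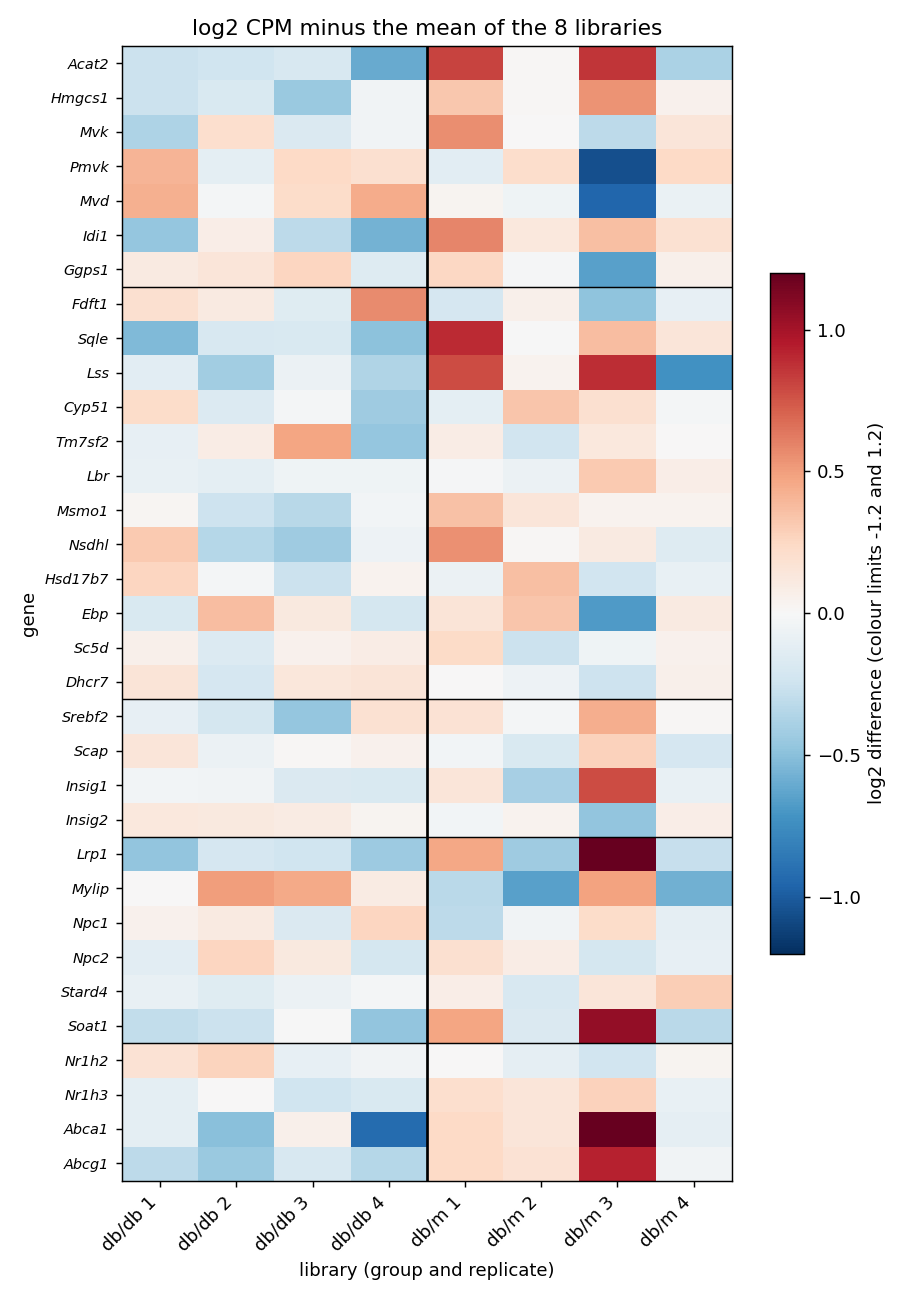
Log2 CPM of the 33 tested members (rows, grouped by role from the top: isoprenoid synthesis, squalene to cholesterol, SREBP control, uptake and transfer, LXR and efflux) in each library (columns, db/db left of db/m), minus the mean of the 8 libraries of that gene; colours stop at -1.2 and 1.2. The column of db/m replicate 3 holds the highest value of 12 members and the lowest of 9. Over all tested genes that library was highest in 31.7% and lowest in 32.1%.

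The early steps, from acetyl-CoA to the isoprenoid diphosphates, held a mix of lower and higher members. Of 7 tested genes, 4 had a negative and 3 a positive log2 fold change, with a median of -0.22. Leaving out db/m replicate 1 moved that median to -0.04, leaving out db/db replicate 1 to -0.13 and leaving out db/m replicate 3 to -0.33. Acat2, the cytosolic thiolase that joins acetyl-CoA units, had 5.22, 5.30, 5.48 and 4.11 CPM in db/db hearts, against 10.9, 6.33, 11.3 and 4.80 CPM in db/m hearts. The groups overlapped, and the high db/m values were those of replicates 1 and 3. For Acat2 the log2 fold change was -0.73 (SE 0.29, edgeR adjusted p 0.347) with all libraries and -0.15 without these 2.

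Hmgcs1 (ENSMUSG00000093930, chromosome 13, 119690379 to 119708260, mm10) encodes the cytosolic synthase that makes HMG-CoA. It had 46.0, 48.5, 40.4 and 53.4 CPM in db/db hearts, against 68.9, 55.6, 80.1 and 57.1 CPM in db/m hearts. Every db/db library was below every db/m library. The mean was 47.1 ± 5.37 CPM in db/db and 65.4 ± 11.4 CPM in db/m hearts (SD, n = 4 each). This gave a log2 fold change of -0.47 (SE 0.15, 95% interval -0.81 to -0.14), with an edgeR adjusted p of 0.296. Without db/m replicates 1 and 3 it was -0.27 and kept its sign, but its edgeR unadjusted p was not under 0.05.

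Idi1 (ENSMUSG00000058258, chromosome 13, 8885501 to 8892451), the isomerase that interconverts the C5 building blocks of isoprenoids, had 6.19, 9.01, 6.86 and 5.76 CPM in db/db hearts, against 12.8, 9.28, 10.96 and 9.69 CPM in db/m hearts. The groups did not overlap, although db/db replicate 2 came close to db/m replicate 2. For Idi1 the log2 fold change was -0.62 (SE 0.19, 95% interval -1.05 to -0.18), with an edgeR adjusted p of 0.296, and -0.45 without db/m replicates 1 and 3. A pseudogene, Gm13502, is 100% identical to Idi1 over its whole length and held 79, 86, 77 and 68 counts in db/db libraries, against 154, 107, 209 and 128 counts in db/m libraries. These raw counts were lower in every db/db library than in every db/m library. Within the shared sequence, reads of gene and pseudogene cannot be told apart, so the pseudogene counts are not a separate measurement. With the pseudogene counts added the log2 fold change of Idi1 was -0.66 (edgeR adjusted p 0.203).

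Of the other enzymes in this stretch, Mvk, mevalonate kinase, had 4.04 to 6.01 CPM in db/db and 4.22 to 7.69 CPM in db/m hearts. The next kinase, Pmvk, had 5.77 to 8.35 CPM in db/db and 3.02 to 7.41 CPM in db/m hearts. Both groups overlapped for these kinases, with log2 fold changes of -0.22 and 0.29. Neither value held its size: Mvk was at -0.04 without db/m replicate 1, and Pmvk was at 0.08 without db/m replicate 3 and turned to -0.04 without both. Mvd, the decarboxylase that yields isopentenyl diphosphate, had the most positive log2 fold change of the set, 0.49 (SE 0.26, edgeR adjusted p 0.430). It had 5.28, 3.85, 4.56 and 5.34 CPM in db/db hearts, against 4.001, 3.78, 2.03 and 3.70 CPM in db/m hearts. The value of db/db replicate 2 lay inside the db/m range, and that of db/m replicate 3 lay below all others. Ggps1 makes geranylgeranyl diphosphate for protein prenylation. It had 28.3 to 37.6 CPM in db/db and 20.1 to 37.4 CPM in db/m hearts (log2 fold change 0.15). Its pseudogene Gm5630, 97.2% identical, held 997 counts, against 5387 in Ggps1 itself.

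Fdps, farnesyl diphosphate synthase, was the single member below the filter on low counts. The gene itself held 0, 2, 0 and 14 counts in db/db libraries, against 6, 2, 4 and 1 counts in db/m libraries, 29 in all. A count of 0 allows up to 3 counts. In contrast, 5 pseudogenes matching Fdps at 95% identity or more held 3637 counts, 2721 of them in Gm3571, so that 0.791% of the pooled counts were assigned to the gene. The sum of gene and pseudogenes was 388, 508, 422 and 444 counts in db/db libraries, against 626, 497, 326 and 455 counts in db/m libraries. These groups overlapped, and the log2 fold change of the sum was 0.02 (SE 0.21, edgeR adjusted p 0.968). How reads that match several places were assigned is not given in the sources used here, so the level of Fdps is uncertain.

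**Figure D2:**
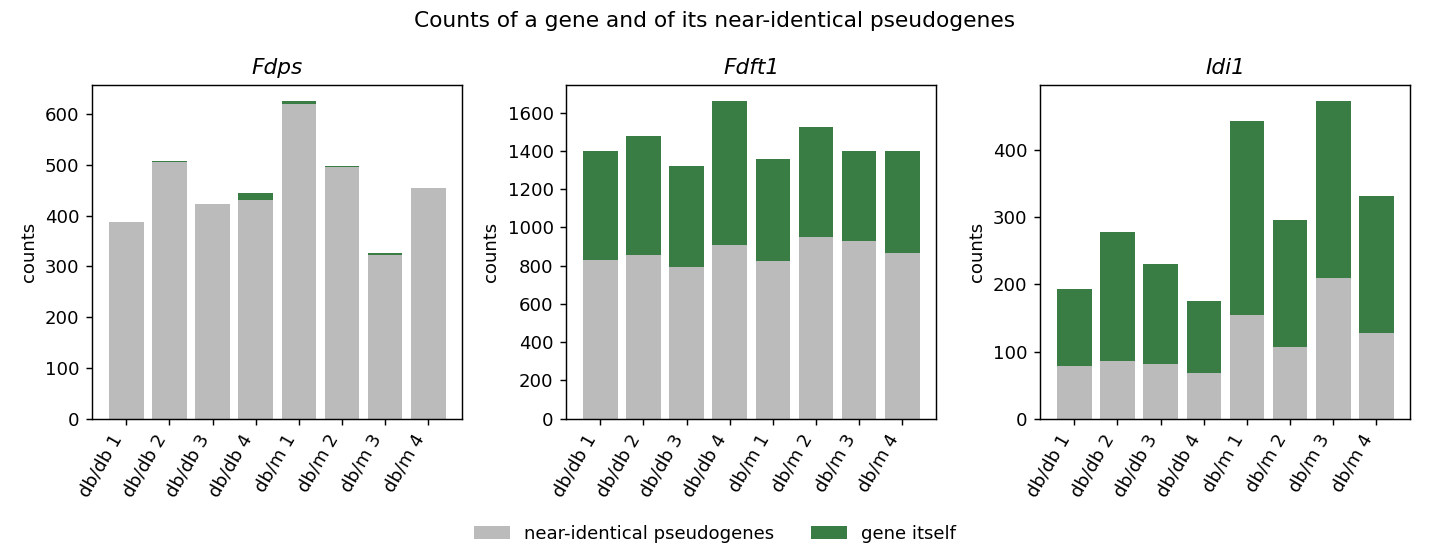
Counts per library (y axis) assigned to Fdps, Fdft1 and Idi1 themselves (green) and to their near-identical pseudogenes (grey, stacked below), with db/db libraries left of db/m libraries. Fdps reads lie almost wholly in the pseudogenes, while 39.8% of the pooled counts stand in Fdft1 and 62.4% in Idi1.

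Start regions were compared for 28 of the 34 members found in a RefSeq promoter table (GRCm38.p6, 250 bases before to 50 after each listed start). Fdps, Fdft1, Sqle, Npc1, Stard4 and Abcg1 had no entry and were not searched. The sterol regulatory element core TCACCCCAC, searched on both strands, stood in 1 of the 28, Hmgcs1, and in 0.614% of 27025 genes. The looser form TCACNCCAC, which includes the first, was found in no further member and in 1.44% of genes. The E-box form TCACGTGA was found in 0 members and in 1.12% of genes. The box CCAAT, bound by NF-Y, a partner of SREBP at sterol genes, stood in 22 of 28 members (78.6%) and in 41.1% of all genes. A match here is a match of letters, not a binding site. An element with other letters, or outside these regions, would not be found. The 3 windows below, each 100 bases and wholly before the start, are shown because they belong to the lower member with the sterol element, the member with the most positive fold change, and the member called in a reduced set of libraries. Capitals mark TCACCCCAC and CCAAT, the last also as its reverse complement ATTGG.
Hmgcs1 (chr13:119690169-119690268, + strand): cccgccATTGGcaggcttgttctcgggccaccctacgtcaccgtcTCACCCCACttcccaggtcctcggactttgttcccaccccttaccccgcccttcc
Mvd (chr8:122443423-122443522, - strand): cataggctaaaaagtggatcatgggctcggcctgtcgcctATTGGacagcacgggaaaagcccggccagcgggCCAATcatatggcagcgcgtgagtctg
Mylip (chr13:45389625-45389724, + strand): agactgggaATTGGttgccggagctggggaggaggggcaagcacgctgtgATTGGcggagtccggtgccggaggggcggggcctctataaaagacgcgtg
In Hmgcs1 the sterol element begins at position -137 from the start. Mvd and Mylip each have 2 CCAAT boxes in the window shown, in both orientations in Mvd and in a single orientation in Mylip, and Idi1 and Msmo1 have 2 and 3 in their start regions.

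From squalene to cholesterol, 12 enzymes were measured, 6 with negative and 6 with positive log2 fold changes and a median of -0.08. Sqle (ENSMUSG00000022351, chromosome 15, 59315077 to 59331192), the epoxidase that opens the sterol branch and is a control point of the pathway, was low in both groups. It had 2.85, 3.61, 3.64 and 2.93 CPM in db/db hearts, against 7.69, 4.12, 5.34 and 4.56 CPM in db/m hearts. Every db/db value lay below every db/m value, with 3.26 ± 0.424 CPM in db/db and 5.43 ± 1.59 CPM in db/m hearts (SD, n = 4 each). For Sqle the log2 fold change was -0.73 (SE 0.25, 95% interval -1.28 to -0.18), with an edgeR adjusted p of 0.302, and -0.42 without db/m replicates 1 and 3.

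Msmo1 (ENSMUSG00000031604, chromosome 8, 64718139 to 64733792), the oxidase that starts removal of the C4 methyl groups, had 11.9, 9.90, 9.30 and 11.5 CPM in db/db hearts, against 14.99, 13.0, 12.1 and 12.1 CPM in db/m hearts. The groups did not overlap, by a narrow margin, and the log2 fold change was -0.30 (SE 0.15, edgeR adjusted p 0.425). For Msmo1 the value without db/m replicates 1 and 3 was close to this, -0.25. Lss, the cyclase that forms lanosterol, had 4.04, 3.28, 4.19 and 3.42 CPM in db/db hearts, against 7.56, 4.52, 8.11 and 2.66 CPM in db/m hearts. Its log2 fold change of -0.62 (SE 0.33, edgeR adjusted p 0.439) rested on db/m replicates 1 and 3 and was 0.05 without them.

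Fdft1, squalene synthase, which commits isoprenoids to sterols, lay on the other side. It had 30.9, 29.2, 24.5 and 40.2 CPM in db/db hearts, against 23.6, 28.2, 19.4 and 25.4 CPM in db/m hearts. The groups overlapped, and the log2 fold change was 0.37 (SE 0.18, edgeR adjusted p 0.409). This value is uncertain because the pseudogene Gm6781 held 6952 counts against 4593 in Fdft1, and because 18.8% of the Fdft1 exon length is shared with Ctsb on the opposite strand, a gene with 83725 counts. With the pseudogene counts added it was 0.19.

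The remaining 8 enzymes had log2 fold changes between -0.25 and 0.13, and their groups overlapped. Cyp51, lanosterol demethylase, had 12.3 to 19.2 CPM in db/db and 15.3 to 20.8 CPM in db/m hearts. The sterol reductase Lbr, also a protein of the inner nuclear membrane, had 30.8 to 32.2 CPM in db/db and 31.9 to 41.6 CPM in db/m hearts. Nsdhl, which acts with Msmo1 in demethylation, had 4.97 to 8.29 CPM in db/db and 5.98 to 9.76 CPM in db/m hearts. The log2 fold changes of these 3 were -0.19, -0.17 and -0.25. Tm7sf2, a second sterol reductase, had 0.961 to 1.84 CPM in db/db and 1.13 to 1.45 CPM in db/m hearts, and it shares 12.1% of its exon length with Vps51 on the same strand. The ketosteroid reductase Hsd17b7 had 35.5 to 50.9 CPM in db/db and 36.4 to 54.7 CPM in db/m hearts. The sterol isomerase Ebp had 10.9 to 16.4 CPM in db/db and 7.90 to 16.0 CPM in db/m hearts. The log2 fold changes of Tm7sf2, Hsd17b7 and Ebp were 0.04, 0.00 and 0.02, each with a 95% interval that spans 0, and without db/m replicates 1 and 3 those of Hsd17b7 and Ebp were -0.15 and -0.19. Sc5d, the desaturase, had 24.4 to 29.0 CPM in db/db and 22.7 to 32.0 CPM in db/m hearts. Dhcr7, the reductase of the last step to cholesterol, had 10.6 to 13.5 CPM in db/db and 10.2 to 12.6 CPM in db/m hearts. Their log2 fold changes were 0.01 (95% interval -0.29 to 0.32) and 0.13 (95% interval -0.20 to 0.46).

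**Figure D3:**
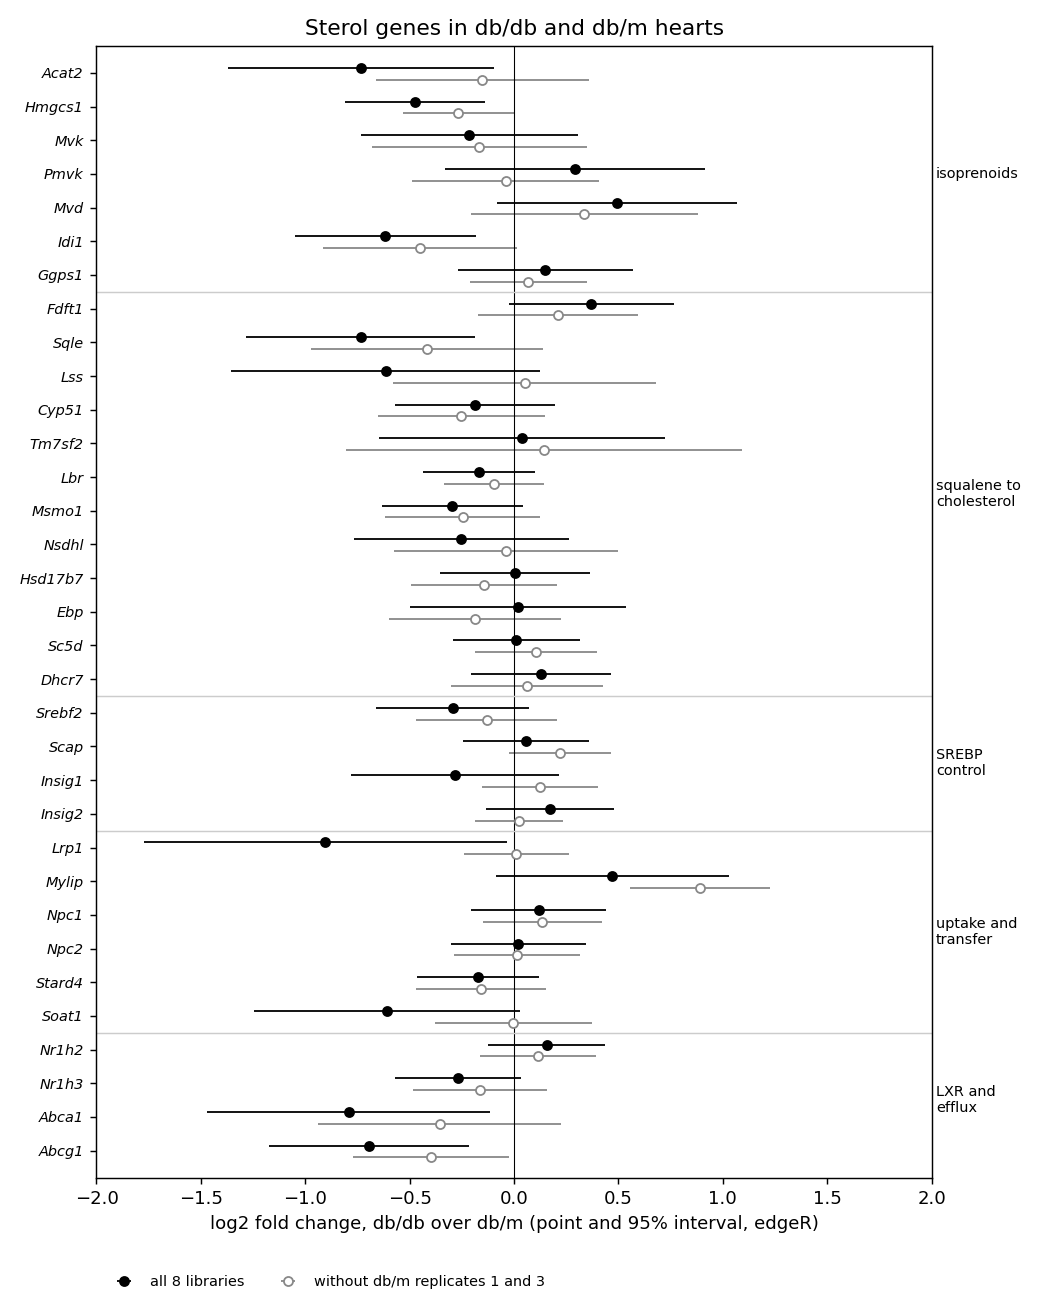
Log2 fold change, db/db over db/m, of the 33 tested members (x axis; point and 95% interval from edgeR) with all 8 libraries (black) and without db/m replicates 1 and 3 (open grey), by role. Lrp1 and Soat1 move to about 0 without these libraries, Hmgcs1, Idi1, Sqle and Abcg1 stay negative, and Mylip moves further to the right. Of the lower members, only Abcg1 then had an edgeR unadjusted p under 0.05.

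For the 4 regulators of sterol sensing the groups overlapped, and the median log2 fold change had no stable direction. It was -0.11 with all libraries, 0.03 without db/m replicate 3, 0.07 without db/m replicates 1 and 3, and 0.02 in the limma-voom fit. With the length trend removed it was -0.01. Srebf2, which encodes SREBP2, had 59.4, 54.9, 46.2 and 72.4 CPM in db/db hearts, against 72.0, 62.7, 86.6 and 64.2 CPM in db/m hearts. Only db/db replicate 4 reached into the db/m range, and the log2 fold change was -0.29 (SE 0.16, edgeR adjusted p 0.448). Scap, the sterol-sensing escort of SREBP2, had 33.4 to 38.9 CPM in db/db and 30.5 to 42.5 CPM in db/m hearts (log2 fold change 0.06). Insig1, itself a target of SREBP in other tissues, had 31.3, 31.2, 28.4 and 28.2 CPM in db/db hearts, against 35.4, 24.3, 55.1 and 30.1 CPM in db/m hearts. The spread lay in the db/m group. The log2 fold change of Insig1 was -0.28 with all libraries and 0.12 without db/m replicates 1 and 3. Its pseudogene Gm37784, 98.9% identical, held 677 counts, against 5654 in Insig1 itself. Insig2, the second anchor of SCAP, was steady at 81.3 to 86.8 CPM in db/db hearts, against 57.5 to 84.3 CPM in db/m hearts, where replicate 3 was lowest (log2 fold change 0.17).

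Lrp1 (ENSMUSG00000040249, chromosome 10, 127538161 to 127621148), a large endocytic receptor for lipoprotein remnants among many ligands, had the most negative log2 fold change of the set, and it rested on 2 libraries. It had 228, 276, 270 and 235 CPM in db/db hearts, against 438, 237, 951 and 262 CPM in db/m hearts. Replicates 1 and 3 of db/m were high, while replicates 2 and 4 lay inside the db/db range. The log2 fold change of Lrp1 was -0.90 (SE 0.39, edgeR adjusted p 0.374) with all libraries and 0.01 (SE 0.12) without these 2, where the edgeR adjusted p was 0.986. Soat1, which esterifies cholesterol for storage, had the same shape. It had 11.8, 12.2, 14.5 and 10.5 CPM in db/db hearts, against 20.2, 12.9, 30.2 and 11.6 CPM in db/m hearts. Its log2 fold change was -0.61 (SE 0.29, edgeR adjusted p 0.396) with all libraries and 0.00 without db/m replicates 1 and 3. The 4 smooth muscle markers summed to 84.8 to 147 CPM in db/db hearts, against 245, 197, 708 and 183 CPM in db/m replicates 1 to 4. These ranges did not overlap, but of the single markers only Acta2 had groups that did not overlap. The 6 fibroblast markers summed to 1794 and 1638 CPM in db/m replicates 1 and 3. Their sums were 968 and 970 CPM in db/m replicates 2 and 4, and 956 to 1406 CPM in db/db hearts. The part of either cell type in the values of Lrp1 and Soat1 was not tested.

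Mylip (ENSMUSG00000038175, chromosome 13, 45389742 to 45412022), a ubiquitin ligase that sends lipoprotein receptors for degradation and is an LXR target, had a higher mean in db/db hearts. It had 48.8, 69.0, 66.8 and 52.0 CPM in db/db hearts, against 39.0, 31.0, 68.2 and 32.6 CPM in db/m hearts. All 4 db/db libraries were above db/m replicates 1, 2 and 4, and db/m replicate 3 was among the db/db values. The log2 fold change of Mylip was 0.47 (SE 0.25, 95% interval -0.09 to 1.03), with an edgeR adjusted p of 0.437. Without db/m replicate 3 it was 0.80 (SE 0.14) with an edgeR adjusted p of 0.0307, 1 of 106 genes then called (0.6% of those tested). Without db/m replicates 1 and 3 it was 0.89 (SE 0.15) with an edgeR adjusted p of 0.0430, 1 of 46 genes called (0.256%). The limma-voom fit with sample weights, which gave db/m replicate 3 a weight of 0.125 and kept all libraries, had an adjusted p of 0.0507. In the library left out, the adipocyte and atrial marker sums were the highest of all 8.

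The genes that carry sterol within the cell overlapped between groups. Npc1, the lysosomal membrane exporter, had 33.4 to 44.9 CPM in db/db and 30.3 to 43.8 CPM in db/m hearts. Its soluble partner Npc2 had 68.6 to 95.1 CPM in db/db and 68.5 to 90.8 CPM in db/m hearts. Stard4, a cytosolic sterol carrier, had 23.6 to 25.6 CPM in db/db and 22.8 to 32.0 CPM in db/m hearts. The log2 fold changes were 0.12 (95% interval -0.21 to 0.44) for Npc1, 0.02 (95% interval -0.30 to 0.35) for Npc2 and -0.17 (95% interval -0.46 to 0.12) for Stard4.

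On the efflux side, both ATP-driven exporters had lower means in db/db hearts, and the median log2 fold change over the 4 genes was -0.48. That median was -0.31 without db/m replicate 3 and -0.26 without db/m replicates 1 and 3. Abcg1 (ENSMUSG00000024030, chromosome 17, 31057675 to 31117988), which moves cholesterol to high density lipoprotein, had 8.78, 8.02, 9.58 and 8.64 CPM in db/db hearts, against 12.9, 12.3, 20.8 and 10.6 CPM in db/m hearts. The groups did not overlap, with 8.76 ± 0.640 CPM in db/db and 14.2 ± 4.53 CPM in db/m hearts (SD, n = 4 each). Abcg1 had the smallest p of the set: its log2 fold change was -0.69 (SE 0.22, 95% interval -1.17 to -0.21), with an edgeR adjusted p of 0.296. Without db/m replicates 1 and 3 it was -0.40 (SE 0.17, edgeR adjusted p 0.437), and after removal of the length-dependent deviation of every library it was -0.56.

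Abca1 (ENSMUSG00000015243, chromosome 4, 53030787 to 53159895), which loads lipid-poor apolipoprotein with cholesterol and phospholipid, had 48.4, 37.3, 54.7 and 27.7 CPM in db/db hearts, against 61.9, 58.2, 122 and 48.9 CPM in db/m hearts. The lowest db/m value lay within the db/db range, and db/m replicate 3 was far above the rest. The log2 fold change of Abca1 was -0.79 (SE 0.30), with an edgeR adjusted p of 0.340. Leaving out db/m replicates 1 and 3 gave -0.36. Nr1h3, LXR alpha, had 15.4, 16.8, 14.2 and 14.7 CPM in db/db hearts, against 19.2, 18.4, 20.2 and 15.7 CPM in db/m hearts, with 1 db/m value inside the db/db range (log2 fold change -0.27, SE 0.14, edgeR adjusted p 0.420). Leaving out db/m replicates 1 and 3 gave -0.17 for Nr1h3. Nr1h2, the widely expressed LXR beta, had 44.4 to 56.9 CPM in db/db and 40.3 to 48.4 CPM in db/m hearts, with a log2 fold change of 0.16. Macrophages, which also express Abca1 and Abcg1, had 10 markers that summed to 399 to 1219 CPM in db/db and 621 to 944 CPM in db/m hearts. These ranges overlapped, but the markers disagreed in db/m replicate 3. Lyz2 and C1qa, both short, had their lowest values there, 143 and 46.5 CPM, while some longer markers had their highest. Of these 10 markers 7 had a negative log2 fold change, the sign of Abca1 and Abcg1, with a median of -0.32, 0 called and 0 at an unadjusted p under 0.05. The part of macrophages in the values of Abca1 and Abcg1 was not tested.

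**Figure D4:**
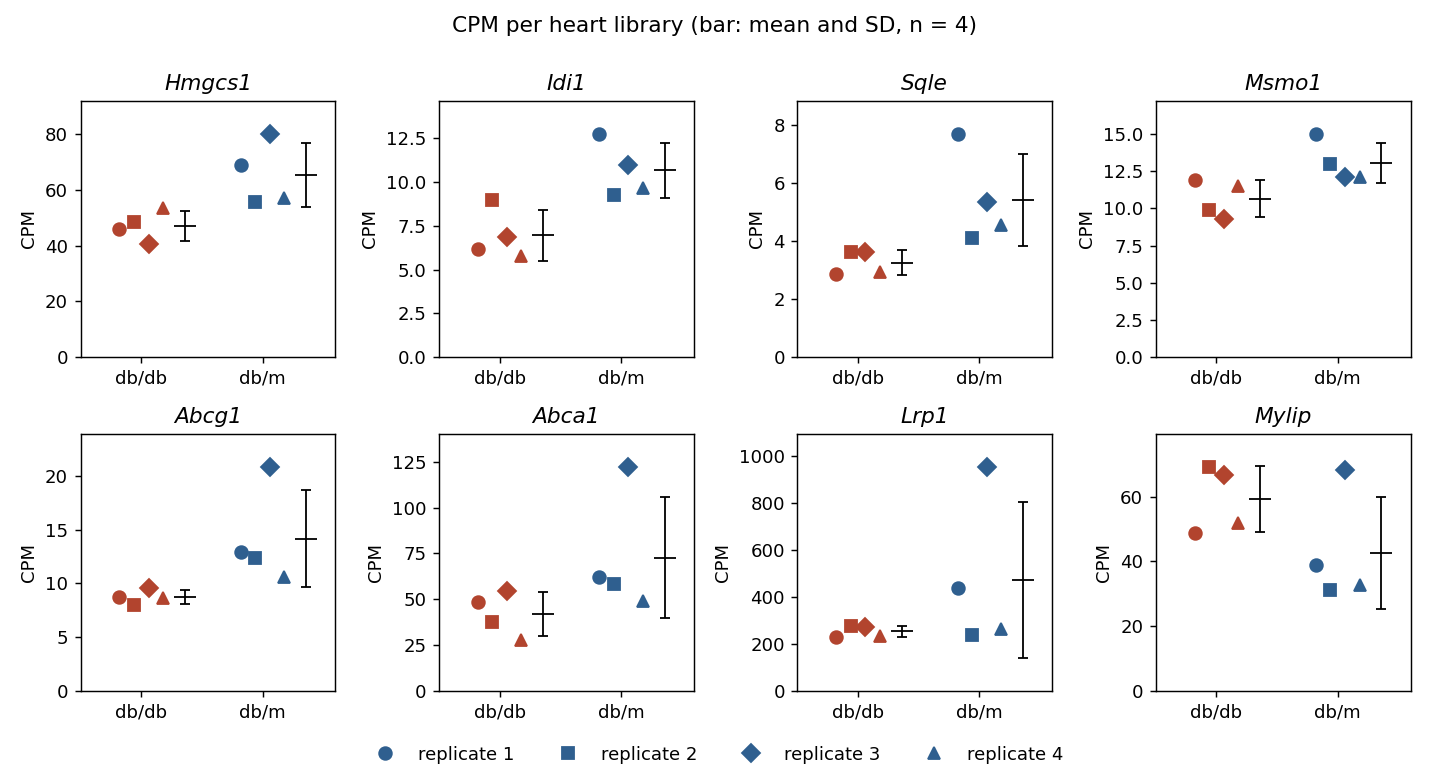
CPM of 8 members in each library (points; the marker shape gives the replicate number, which does not pair libraries) with the mean and SD of each group (n = 4), db/db left of db/m; each panel has its own y axis from 0. Hmgcs1, Idi1, Sqle, Msmo1 and Abcg1 do not overlap between groups, while db/m replicate 3 stands at 951 CPM for Lrp1, 122 CPM for Abca1 and 68.2 CPM for Mylip.

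Per length, in CPM per kilobase of exon, the set spanned a wide range of levels. In db/db hearts Insig2 was highest at 24.5 ± 0.734, followed by Mylip at 18.3 ± 3.17, Nr1h2 at 14.96 ± 1.77, Npc2 at 14.8 ± 2.24 and Lrp1 at 14.2 ± 1.37 (SD, n = 4). In db/m hearts the levels were 21.8 ± 3.54 for Insig2, 13.2 ± 5.37 for Mylip, 13.4 ± 1.10 for Nr1h2, 14.6 ± 1.85 for Npc2 and 26.6 ± 18.7 for Lrp1. The levels of Nr1h2, Npc2 and Lrp1 in db/db hearts differed by less than their spread. Of the synthesis enzymes, on counts of the genes alone and leaving out pseudogenes, Hmgcs1 was highest, at 10.3 ± 1.17 in db/db and 14.2 ± 2.49 in db/m hearts. Fdft1 had fewer counts than Hmgcs1, 4593 against 9604 in all, but 11545 with its pseudogene, so their order is uncertain. Sqle, Lss and Tm7sf2 were lowest of the tested members, at 0.588, 0.346 and 0.309 in db/db hearts, against 0.979, 0.530 and 0.302 in db/m hearts.

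Of 28 further genes of sterol handling, 27 were tested and 0 were called by edgeR, DESeq2 or limma-voom, with a median log2 fold change of -0.01. At an unadjusted p under 0.05 in edgeR there were 2 of 27, both lower in db/db hearts, against 7.84% of all genes lower, and without db/m replicates 1 and 3 there were 0. DESeq2 gave 2 lower and 1 higher at that p (all genes 8.52% lower and 6.09% higher). Limma-voom gave 2 lower and 3 higher (all genes 7.29% lower and 7.01% higher). The groups did not overlap in 2 of 27 genes that were lower, Srebf1 and Rnf145, against 4.61% of all genes. They also did not overlap in 2 that were higher, Osbp and Osbpl2, against 5.04%. Osbpl2 was named after its values were seen. Srebf1, which encodes the SREBP1 factors of fatty acid synthesis and is an LXR target, had 44.04, 33.0, 42.7 and 45.6 CPM in db/db hearts, against 62.2, 52.1, 105 and 46.8 CPM in db/m hearts. The log2 fold change was -0.69 (SE 0.24, edgeR adjusted p 0.320). Rnf145, a sterol-responsive ubiquitin ligase of the endoplasmic reticulum and an LXR target, had 22.7, 27.4, 28.6 and 24.3 CPM in db/db hearts, against 35.4, 31.0, 43.7 and 29.6 CPM in db/m hearts. For Rnf145 the log2 fold change was -0.44 (SE 0.15, edgeR adjusted p 0.317). Without db/m replicates 1 and 3 the log2 fold changes were -0.27 for Srebf1 and -0.24 for Rnf145. The oxysterol-binding protein gene Osbp averaged 204 ± 13.0 CPM in db/db and 171 ± 11.9 CPM in db/m hearts, and the sterol transporter gene Gramd1a 24.0 ± 2.72 CPM in db/db and 19.9 ± 2.27 CPM in db/m hearts (SD, n = 4 each). Osbp and Gramd1a had log2 fold changes of 0.25 and 0.27, with edgeR adjusted p values of 0.388 and 0.429.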

How the data were processed

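The deposited values are raw counts per Ensembl gene on mm10, per the submitters' processing notes and the file headers; the 8 single-sample files held the same counts. Libraries used 3 µg of RNA and the NEBNext Ultra kit, per the labels. No aligner, counter, strand setting or handling of multiply mapping reads is given in the sources used here. Symbols came from GENCODE M21 (55480 of 55573 identifiers).

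The test was that of edgeR 4.0.16, run in R 4.3.3 (filterByExpr, minimum count 10 and minimum total 15; TMM; robust quasi-likelihood F test; two-sided; Benjamini-Hochberg over 17411 genes; threshold 0.05), and the script was checked on simulated data. The SE and 95% interval derive from the test. Alternatives were DESeq2 1.42.0, limma-voom (3.58.1), other scalings and filters, a replicate block, leaving out libraries, adding counts of pseudogenes matched by BLAST 2.17.0 at 95% identity over 0.5 of their length, and, chosen after seeing the data, removing the trend on gene length (lowess span 0.3).

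The members and lists were chosen with earlier results of these data known. Any member may be named, and of the other sterol genes the 4 with the smallest p. No libraries matched within sampling noise. The labels name no separate animals, so the p-values reflect variation among these libraries only, part of which may be technical.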

Additional observations from a re-analysis of the deposited data

Results flagged for a closer look

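Of 68 groups of 4 libraries (each member in each genotype), 4 held a library that stood apart from the others by Dixon's criterion at the 95% level; chance alone gives about 1 in 20. Fdps had 0.747 CPM in db/db replicate 4, against 0 to 0.0939 CPM in the other db/db libraries. Sc5d had 24.4 CPM in db/db replicate 2, against 28.2 to 29.0 CPM in the others. Dhcr7 had 10.6 CPM in the same library, against 13.4 to 13.5 CPM in the others. Mvd had 2.03 CPM in db/m replicate 3, against 3.705 to 4.001 CPM in the other db/m libraries.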

How the results depend on the processing

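Members called numbered 0 except without db/m replicate 3 and without db/m replicates 1 and 3, where Mylip was called (1 each; log2 fold changes 0.80 and 0.89); leaving out single libraries gave 0 to 1. Members at an unadjusted p under 0.05 numbered 4 to 9 on leaving out single libraries (4 without db/m replicate 1) and 2 without db/m replicates 1 and 3; all genes at that p made up 8.69% to 16.2% and 10.7% in these fits. Other sterol genes at that p numbered 1 to 5 on leaving out single libraries (1 without db/db replicate 1, 5 without db/m replicate 3), 5 by limma-voom (all genes 14.3%), 5 with the length trend removed (all genes 13.9%) and 0 without db/m replicates 1 and 3. Over all genes, calls numbered 377 by DESeq2, 101 by limma-voom, 27 without a filter, 12 with the length trend removed, 4 at an adjusted p of 0.10, 46 without db/m replicates 1 and 3, and 0 to 106 on leaving out single libraries (106 without db/m replicate 3). The median log2 fold change of members was -0.212 to -0.0874 on leaving out single libraries and -0.0374 without db/m replicates 1 and 3. Without both, the SREBP control median was 0.074 and the LXR and efflux median -0.26. The isoprenoid median was -0.0115 with no filter, a fit that also holds Fdps (8 genes, against 7 with the filter). The squalene to cholesterol median ranged from -0.149 to -0.0503 on leaving out single libraries. The causes were not tested. With the replicate block 5 genes and 0 members were called; the numbers did not pair the libraries (same-number correlations -0.088 to 0.056, and 1 of 4 db/db libraries correlated best with its own number). Over the 18 alternatives 24 of 33 members kept their sign. Depth limits Tm7sf2 most; for Fdps the limit is the assignment of reads to pseudogenes.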
